A study of Mus musculus with 2 samples.

Results

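Semaphorins, plexins and neuropilins are the ligands, the signalling receptors and the ligand-binding co-receptors of one guidance system, and their transcripts were compared between the telencephalon and the whole body of mouse fetuses. Members were the genes of the FPKM table named as a semaphorin of class 3 to 7, as a plexin of the A, B, C or D family, or as a neuropilin. The table of 43437 genes held 31 of them, namely 20 semaphorins, 9 plexins and 2 neuropilins, and none was on more than 1 row. Both libraries came from untreated wild-type ICR fetuses at E12.5 (the embryonic day). ICR mice are outbred, and the telencephalon is the anterior brain vesicle that gives rise to cortex and basal ganglia. There was 1 library of the whole body and 1 of the telencephalon, and the labels give neither the number nor the sex of the fetuses, nor whether heads were part of the whole body. With 1 library a group no difference has a replicate check and no p-value is given, so every value describes these 2 libraries.

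Semaphorins carry a conserved sema domain and steer axons, migrating neurons and growing vessels, most often by repulsion. Class 3 members are secreted and mostly bind neuropilins, which have short cytoplasmic ends and pass the signal to plexins of the A family. Classes 4, 5 and 6 span the membrane and class 7 is held by a lipid anchor, and these act on plexins without neuropilins. Plexins switch off small GTPases of the Ras and Rap type and so loosen adhesion and the cytoskeleton of the receiving growth cone. In the fetal telencephalon the system is known for guiding cortical axons, placing interneurons and shaping dendrites, and in the body for patterning vessels, heart, peripheral nerves and bone.

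The values are FPKM, fragment numbers corrected for transcript length and sequencing depth, which permits levels of different genes to be compared. The smallest steps of the values put the depth near 29300000 fragments for whole body and 22700000 for telencephalon, so that 3 fragments on a transcript of 2000 bases were worth 0.0611 and 0.0794 FPKM. Each difference is given as the log2 of (telencephalon FPKM + 1) / (whole-body FPKM + 1), a scale that shrinks differences of weakly expressed genes, whereas a fold is the plain FPKM ratio. A gene was measured at 1 FPKM or more in either library, and called higher or lower where the ratio of FPKM + 1 reached 2. Of 14987 measured genes, 9.39% were called higher in telencephalon and 21.2% lower, and their median log2 ratio was -0.16. Of 11 marker genes of the telencephalon 10 were called higher and none lower, and their summed FPKM was 46.8 in whole body against 1064 in telencephalon. Marker genes of mesenchyme and cartilage summed to 2148 FPKM in whole body against 26.1 in telencephalon, those of muscle to 626 and 1.496, and those of endothelial cells to 153 and 61.0. Liver, erythroid, macrophage and epithelial lists were likewise lower, with none of their measured genes called higher. Of 7 marker genes of peripheral neurons and neural crest, 5 were called lower and 1 higher. The latter was Isl1, at 11.6 FPKM in whole body against 47.5 in telencephalon. In such bulk libraries fewer cells of a type and less RNA per cell cannot be told apart.

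The secreted semaphorins and the neuropilin Nrp1 stood lower in telencephalon than in whole body, whereas the A-family plexins and most membrane-bound semaphorins stood higher. All 7 class 3 semaphorins had ratios below 0 and 4 of them were called lower, while 11 of 13 membrane-bound semaphorins had ratios above 0 and 4 were called higher. On protein-coding isoforms of 1000 bases or more these counts were 6 of 7 and 10 of 13, since Sema3e turned to 0.10 and Sema4d to -0.16. All 4 A-family plexins had ratios above 0 and 3 were called, and both neuropilins had ratios below 0 with Nrp1 called. Nrp2 was not called, at -0.34 beside a median of -0.16 over all measured genes. Plxnb3 stayed under 1 FPKM in both libraries, so 30 members were measured. Of these, 9 were called higher, against 9.39% of all measured genes, and 5 lower, against 21.2%. The median log2 ratio was 0.28 over the 30 members, 0.18 over the 20 ligands and 0.83 over the 10 measured receptors, a ligand median minus receptor median of -0.65. This difference was -0.29 with a floor of 5 FPKM. With TPM it was -0.46, but the floor of 1 then fell on larger values and Plxnb3 was counted too. Leaving out the floor on FPKM also gave -0.46. Within the ligands, the 13 membrane-bound semaphorins had a median of 0.64 and the 7 secreted ones had -1.21. The direction of each member was the same when both libraries were scaled to a common upper quartile or to TPM.

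**Figure D1:**
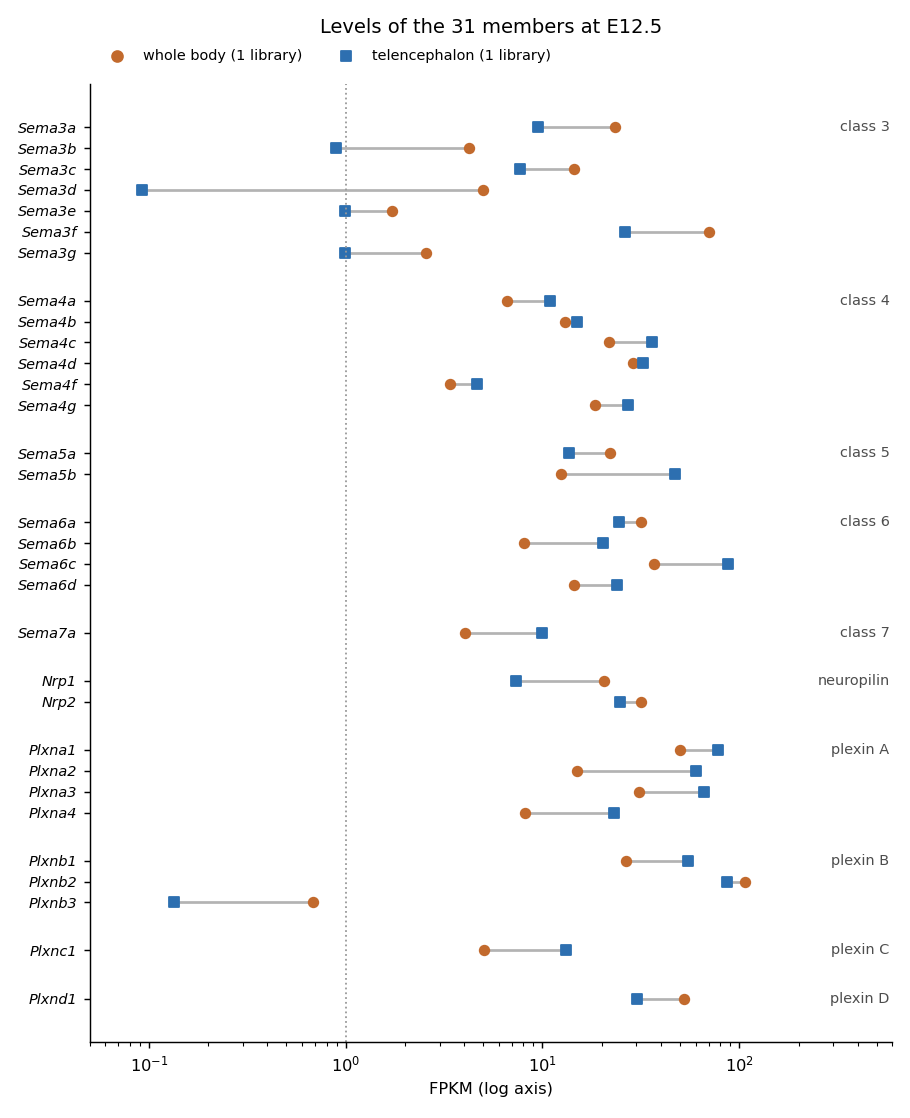
FPKM of each of the 31 members (log axis) in the whole-body library (circles) and the telencephalon library (squares), by semaphorin class and receptor family, with a dotted line at 1 FPKM and no error bars since each point is 1 library. In all 7 class 3 rows and both neuropilin rows the square lies left of the circle, and in all 4 plexin A rows it lies right.

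Among the secreted ligands, Sema3f, a repellent that acts through Nrp2, was the most abundant. Its level was 70.2 FPKM in whole body against 26.2 in telencephalon, 2.68-fold lower, and so dropped from the second to the twelfth highest level of the 31 members. Sema3a, the prototype collapsing factor for growth cones and a ligand of Nrp1, stood at 23.3 and 9.52 FPKM, 2.45-fold lower. Isoforms under 1000 bases held 19.5% and 7.23% of Sema3a. Without them it stood at 18.8 and 8.84 FPKM, a log2 ratio of -1.008 and so barely past the threshold. Sema3c, which attracts neural crest cells into the outflow tract of the heart and also acts on cortical axons, stood at 14.5 and 7.68 FPKM and was not called. These 3 genes made up most of the class 3 FPKM in telencephalon. Of the Sema3f value, isoforms that are non-coding or under 1000 bases held 45.7% and 50.6%, and without them it stood at 38.1 and 12.9 FPKM.

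The other 4 secreted semaphorins were near or under 1 FPKM in telencephalon. Sema3d, a secreted ligand with roles in heart and vein development, had the lowest ratio of all members, at 4.99 FPKM in whole body against 0.0923 in telencephalon. This corresponded to about 874 and 13 fragments, a 52.1-fold difference scaled by depth, with a 95% exact interval from 30.3 to 98.2 that covers counting error only. Sema3b stood at 4.25 and 0.893 FPKM, 4.77-fold lower, on about 307 and 53 fragments. Sema3g, which arterial endothelium makes, stood at 2.56 and 0.993 FPKM, and Sema3e, which binds Plxnd1 directly and repels vessels, at 1.72 and 0.994 FPKM. Neither was called on the scale of FPKM + 1. Sema3g was 2.58-fold lower by FPKM, with an interval from 2.04 to 3.28 on its fragments. For Sema3e an isoform with a retained intron held 51.01% of the whole-body value and 1.87% of the telencephalon value, and the protein-coding isoforms of 1000 bases or more stood at 0.844 and 0.975 FPKM, the opposite order.

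Marker genes of mesenchyme and cartilage differed more than class 3 did. All 9 were called lower and their sum was 82.2-fold lower in telencephalon, whereas the summed class 3 FPKM went from 121 in whole body to 46.4. Dcn and Lum, matrix genes of fibroblasts, stood at 0.340 and 0.354 FPKM in telencephalon. Their part in the class 3 difference was not tested.

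The 6 class 4 semaphorins lay within 2-fold and all had ratios above 0, from 0.16 to 0.70. Sema4c, a ligand of Plxnb2, stood at 21.8 FPKM in whole body against 36.1 in telencephalon, and Sema4a, which also acts on immune cells, at 6.64 and 10.9. Sema4g, another Plxnb2 ligand, stood at 18.5 and 27.2 FPKM and Sema4f at 3.37 and 4.67. An isoform not annotated as protein-coding held 41.4% and 45.6% of Sema4g, and without it Sema4g stood at 10.8 and 14.8 FPKM. Sema4b was nearly level, at 13.0 and 15.0 FPKM. Sema4d, the classic ligand of Plxnb1, stood at 28.7 and 32.3 FPKM, but an annotated processed transcript of 443 bases held 61.5% and 54.5% of these values. This short transcript rested on only about 61 and 43 of the estimated fragments of the gene. Its protein-coding isoforms of 1000 bases or more stood at 8.27 and 7.29 FPKM, the opposite order (log2 ratio -0.16). Summed over isoforms, the gene had about 1071 and 748 fragments, a depth-scaled ratio of 0.901 with an interval of 0.820 to 0.991. These sums leave out the shortest isoforms, among them one of 405 bases with 1.80 FPKM in whole body.

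The 2 class 5 semaphorins, which carry thrombospondin repeats beside the sema domain, went opposite ways. Sema5b stood at 12.4 FPKM in whole body against 47.0 in telencephalon, 3.797-fold higher and the highest ratio among the ligands. Sema5a stood at 22.1 and 13.6 FPKM and was not called. Within a library, which no scaling can alter, there were 0.561 FPKM of Sema5b for each FPKM of Sema5a in whole body and 3.44 in telencephalon. Both bind plexins A1 and A3 in the retina, where they confine neurites.

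Class 6 and class 7 were higher in telencephalon with the exception of Sema6a. Sema6c, at 37.1 FPKM in whole body against 87.6 in telencephalon, had the highest level of all 31 members in telencephalon, although isoforms that are non-coding or under 1000 bases held 45.9% and 39.9% of it. Without those isoforms Sema6c stood at 20.1 and 52.6 FPKM and in telencephalon lay below Plxna1, Plxnb2 and Plxna2. Sema6b, a ligand of Plxna4, stood at 8.03 and 20.4 FPKM, 2.54-fold higher, and Sema6d, a ligand of Plxna1, at 14.4 and 24.0, which was not called. Sema6a, a ligand of Plxna2 and Plxna4 that also keeps cell bodies at boundaries, stood at 31.8 and 24.4 FPKM, a ratio below 0 and not called. Sema7a, which acts through Plxnc1 and through the integrin Itgb1, stood at 4.07 and 9.91 FPKM, 2.44-fold higher.

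**Figure D2:**
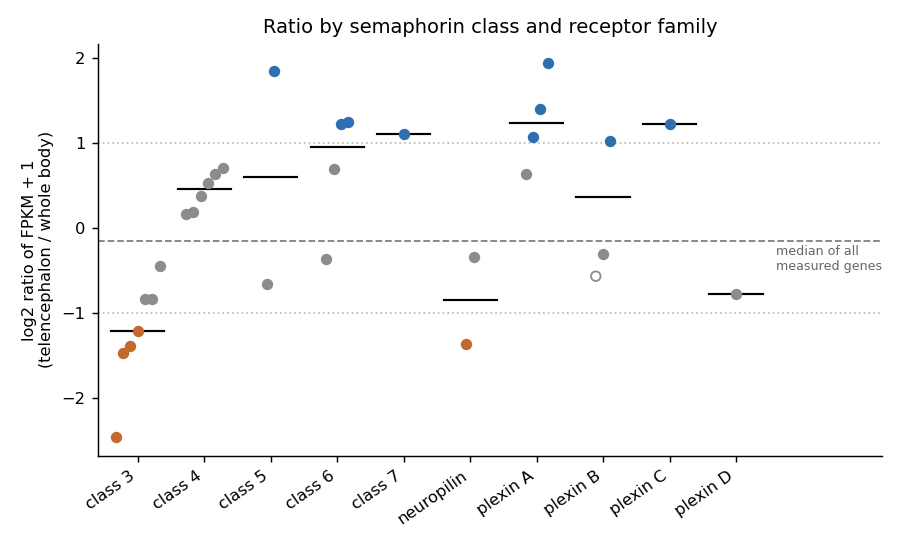
Log2 ratio of FPKM + 1, telencephalon over whole body, for each member by semaphorin class and receptor family; blue points were called higher, orange lower, grey lay within 2-fold, the open point is Plxnb3 (under 1 FPKM in both libraries), black bars are medians of measured members and the dashed line is the median of all measured genes. Class 3 lies between -2.45 and -0.45 and plexin A between 0.63 and 1.94, with no overlap.

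The make-up of the ligand pool differed between the libraries. Class 3 held 35.4% of the summed semaphorin FPKM in whole body and 11.6% in telencephalon, and class 6 held 26.6% and 39.1%. Class 4 held 26.8% and 31.6% and class 5 held 10.0% and 15.2%. There were 1.83 FPKM of membrane-bound semaphorin for each FPKM of class 3 in whole body and 7.61 in telencephalon.

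Among the receptors, both co-receptors for secreted ligands had ratios below 0, but only Nrp1 was called lower in telencephalon. Nrp1, which binds Sema3a and also the vascular growth factor Vegfa, stood at 20.5 FPKM in whole body against 7.38 in telencephalon, 2.78-fold lower, with an interval of 2.53 to 3.07 on its fragments. Nrp2, the receptor of Sema3f on interneurons and on lymphatic vessels, stood at 31.6 and 24.7 FPKM and was not called. Its log2 ratio of -0.34 was above that of 40.8% of measured genes, whose median was -0.16. Nrp2 exceeded Nrp1 in both libraries, 1.54-fold in whole body and 3.347-fold in telencephalon. Endothelial cells express Nrp1, and of 9 endothelial marker genes 7 were called lower and none higher, with a sum 2.51-fold lower. Kdr, the growth factor receptor that pairs with Nrp1 on endothelium, stood at 14.9 and 5.20 FPKM, Cldn5, a tight-junction gene of vessels, at 27.2 and 24.4, and no marker of the list was under 1 FPKM in telencephalon. Their part in the Nrp1 difference was not tested.

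All 4 A-family plexins were more abundant in telencephalon. Plxna2, a receptor of class 6 semaphorins, stood at 14.9 FPKM in whole body against 60.3 in telencephalon, 4.03-fold higher, the highest ratio of the 31 members and above that of 97.6% of measured genes. Plxna4, which pairs with Nrp1 in sensory and cortical axons, stood at 8.16 and 23.1 FPKM, 2.83-fold higher. Plxna3, the partner of Nrp2 for Sema3f, stood at 30.9 and 66.1 FPKM, 2.14-fold higher. Plxna1 was the most abundant of the family in both libraries, at 50.1 and 78.3 FPKM, and was not called. The order was Plxna1, Plxna3, Plxna2 and Plxna4 in both, but on protein-coding isoforms of 1000 bases or more Plxna2, at 59.0 FPKM, lay above Plxna3, at 44.1, in telencephalon. Plxna2 had 0.298 of the Plxna1 level in whole body and 0.770 in telencephalon.

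The balance of plexin A to neuropilin was compared within each library. There were 1.998 FPKM of A-family plexin for each FPKM of neuropilin in whole body and 7.10 in telencephalon. The family held 29.96% of the summed receptor FPKM in whole body and 51.2% in telencephalon, and the neuropilins 15.0% and 7.21%. Marker genes of neurons summed to 183 FPKM in whole body against 789 in telencephalon, with 5 of 5 measured called higher, and those of neural progenitors to 999 against 1462, with 5 of 6 called higher. Their part in the plexin A difference was not tested.

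The remaining plexins were mixed. Plxnb2, which is required for neural tube closure and binds Sema4c and Sema4g, had the highest whole-body level of the 31 members, at 106.8 FPKM, and stood at 86.6 in telencephalon, within 2-fold. Plxnb1, the Sema4d receptor, stood at 26.5 and 54.8 FPKM, just past the threshold at a log2 ratio of 1.02. Plxnb3, known from oligodendrocytes, stood at 0.680 and 0.134 FPKM on about 76 and 17 fragments, nearly all of it assigned to non-coding or short isoforms. Plxnc1, the Sema7a receptor, stood at 5.06 and 13.2 FPKM, 2.60-fold higher. Plxnd1, an endothelial plexin for Sema3e that is also expressed in neurons, stood at 52.1 and 30.1 FPKM and was not called. It exceeded Sema3e 30.2-fold in whole body and 30.3-fold in telencephalon, but 61.5-fold and 30.9-fold on protein-coding isoforms of 1000 bases or more.

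**Figure D3:**
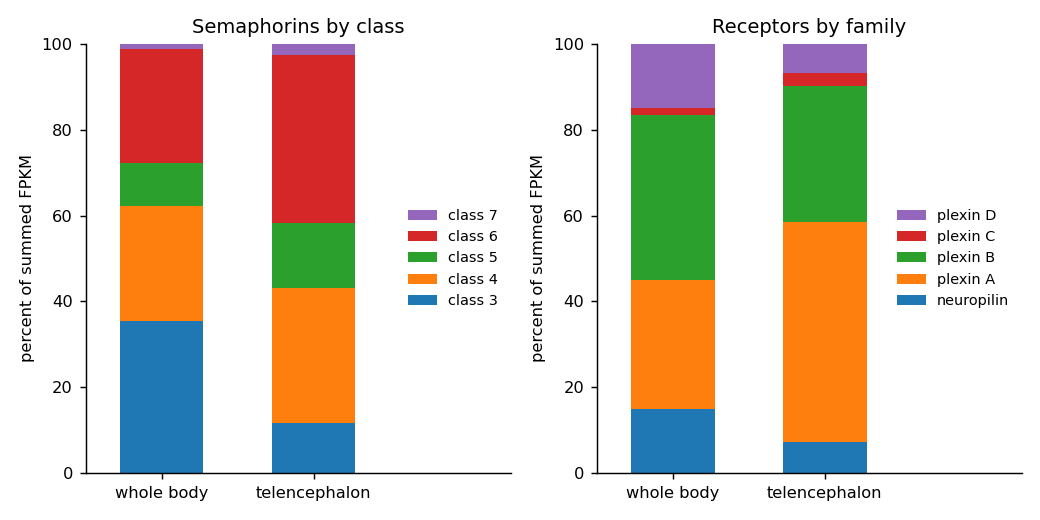
Share of the summed FPKM of the 20 semaphorins held by each class (left) and of the 11 receptors held by each family (right), in percent, for the 2 libraries. The class 3 segment goes from 35.4% to 11.6% and the plexin A segment from 29.96% to 51.2%.

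Known ligand and receptor pairs can be read side by side from these values. For Sema3a with Nrp1, and for Sema3f with Nrp2, ligand and neuropilin both had ratios below 0 while the plexin partners Plxna4 and Plxna3 were called higher. For Sema7a with Plxnc1 both partners were called higher, at 2.44-fold and 2.60-fold. For Sema6b with Plxna4 both were called higher as well. For Sema6a with Plxna2 the ligand was 0.767 of its whole-body level and the receptor 4.03-fold higher. For Sema3e with Plxnd1 neither was called; both had ratios below 0 in the gene table, but Sema3e had 0.10 on protein-coding isoforms of 1000 bases or more.

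Isoforms were compared in the 22 members with several isoforms and 2 FPKM or more in both libraries, and the leading isoform differed in 3 of them, Sema6d, Sema4a and Sema6a. Cufflinks divides reads among overlapping isoforms by a model, so shares of near-identical isoforms are uncertain. For Sema6d and Nrp2, isoforms were therefore grouped by the exon in question. The shares that differ for Sema4a and Sema6a are those of single isoforms and keep this uncertainty. Sema6d spans the membrane once and its forms differ in the stretch between the sema domain and the cell interior. A coding exon of 168 bases (chr2:124662204-124662371 on GRCm38, plus strand) is present in 4 of its 8 coding isoforms, and 1 of these uses a form that lacks the last 12 bases. The exon is shown because it separates the leading isoforms of the libraries; capitals mark the 12 bases that the shorter form lacks, read from GENCODE M21 transcripts.
Sema6d 168-base exon: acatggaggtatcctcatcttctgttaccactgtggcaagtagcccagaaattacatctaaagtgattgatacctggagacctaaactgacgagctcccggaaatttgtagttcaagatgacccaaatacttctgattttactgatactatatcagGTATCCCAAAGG

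Isoforms with this exon held 61.4% of the coding Sema6d FPKM in whole body and 30.5% in telencephalon, or 8.59 and 6.99 FPKM. Isoforms without it stood at 5.40 and 15.9 FPKM, so the sum without the exon was higher in telencephalon and the sum with it was not. Single isoforms did not all follow their sum: with the exon, ENSMUST00000103238 stood at 1.66 and 3.82 FPKM, and without it, ENSMUST00000078621 stood at 1.91 and 1.14. A second coding exon, of 57 bases, was in 38.3% and 18.8%. The forms with the same coding sequence of 2994 bases, which skip both exons, held 23.9% of all Sema6d in whole body and 52.3% in telencephalon.

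Nrp2 kept the same leading isoform, but its end forms differed in share. The a forms end in an exon that begins at 62815333 on chromosome 1 and the b forms in an exon that begins at 62795709, and these exons encode different membrane-spanning and cytoplasmic parts. The first 150 coding bases of each are given to show where the forms part. Of the 4 a-form isoforms 2 also hold a coding exon of 51 bases (chr1:62812534-62812584, plus strand), shown in capitals with the 21 transcript bases on each side.
Nrp2 a-form end, chr1:62815333-62815482: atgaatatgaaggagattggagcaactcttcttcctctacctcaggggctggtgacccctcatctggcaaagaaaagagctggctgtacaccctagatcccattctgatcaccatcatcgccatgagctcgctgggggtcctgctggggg
Nrp2 b-form end, chr1:62795709-62795858: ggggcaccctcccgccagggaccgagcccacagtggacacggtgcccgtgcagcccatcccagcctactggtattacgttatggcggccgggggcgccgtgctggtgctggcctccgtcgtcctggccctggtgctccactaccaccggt
Nrp2 51-base exon: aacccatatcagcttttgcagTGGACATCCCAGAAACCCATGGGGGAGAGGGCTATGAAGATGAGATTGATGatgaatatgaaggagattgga

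The b-form end held 26.2% of coding Nrp2 FPKM in whole body and 12.55% in telencephalon, or 8.26 and 3.08 FPKM. The a-form end stood at 23.2 and 21.5 FPKM, so most of the difference in Nrp2 was in b forms. The 51-base exon was in isoforms with 38.8% of coding FPKM in whole body and 51.9% in telencephalon, or 12.2 and 12.7 FPKM.

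Sema4a had different leading start sites. Its isoforms with the full coding sequence of 2280 bases differ in a non-coding first exon, and together held 88.3% of Sema4a in whole body and 82.0% in telencephalon. The isoform with a first exon of 192 bases (chr3:88455548-88455739, minus strand) held 53.7% in whole body and 8.25% in telencephalon. The isoform with a first exon of 115 bases (chr3:88458987-88459101) held 21.5% and 68.3%. The whole gene rested on about 506 and 619 fragments, of which only those that touch a first exon tell these isoforms apart. The 250 bases before each RefSeq start (GRCm38.p6) are shown in the direction of transcription because the shares bear on them, with capitals for matches to any of 5 motifs searched on both strands: the GC box GGGCGG, the CCAAT box, the E-box CAGCTG, the homeodomain motif TAATTA and the TATA motif TATAAA.
Sema4a start used more in whole body, chr3:88455762-88456011: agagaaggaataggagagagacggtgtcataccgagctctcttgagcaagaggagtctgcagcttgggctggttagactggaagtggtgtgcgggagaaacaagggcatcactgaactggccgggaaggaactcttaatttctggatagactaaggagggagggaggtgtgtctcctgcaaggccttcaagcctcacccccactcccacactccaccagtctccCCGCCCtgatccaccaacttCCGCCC
Sema4a start used more in telencephalon, chr3:88459102-88459351: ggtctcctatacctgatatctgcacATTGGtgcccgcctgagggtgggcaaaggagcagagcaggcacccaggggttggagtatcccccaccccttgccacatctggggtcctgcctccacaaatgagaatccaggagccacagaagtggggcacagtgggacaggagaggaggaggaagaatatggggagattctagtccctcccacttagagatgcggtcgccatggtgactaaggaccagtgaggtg

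The window of the whole-body start held 2 GC boxes, and that of the telencephalon start held none of them and 1 CCAAT match. Their G and C content was 56.4% and 58%. Sema6a, the third gene whose leading isoform differed, had its form with a coding sequence of 3144 bases at 18.4% in whole body and 37.1% in telencephalon.

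**Figure D4:**
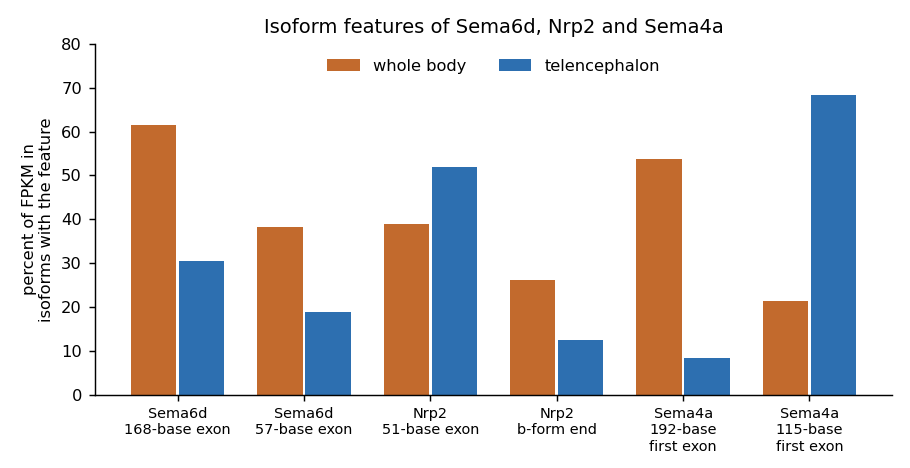
Percent of FPKM in isoforms that contain a given exon or end, in whole body (orange) and telencephalon (blue); for Sema6d and Nrp2 the base is the FPKM of protein-coding isoforms, for Sema4a that of all isoforms, and each bar is 1 library. The 168-base exon of Sema6d goes from 61.4% to 30.5%, and the 115-base first exon of Sema4a from 21.5% to 68.3%.

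Promoter windows of the members were mostly rich in G and C. RefSeq windows matched 26 of the 31 members. Where a gene had several, the one whose start held the largest share of its FPKM among them was used. For 2 members, Nrp1 and Sema3d, no annotated isoform began within 100 bases of the window's start site. The share was small for some others, at 18.3% in whole body and 13.8% in telencephalon for Sema6d and 3.41% and 21.7% for Sema4d. A GC box was in 19 of the 26 windows, against 32.7% of all 32851 windows of the same length. The median G and C content was 65% against 52.4%, a property that shares letters with the motif itself. The sets are unlike, since all windows include several per gene and genes that were not measured. Members also differed: the median was 67.2% in 8 windows of members called higher and 46.8% in 3 of those called lower. In the 5 class 3 windows it was 48%, below that of all windows. A CCAAT match was in 4 windows (33.8% of all windows), an E-box in 4 (13.0%), and neither TAATTA (4.84%) nor TATAAA (12.4%) was in any. The window of Plxna2, the member with the highest ratio, is shown as an example, with its 2 GC boxes in capitals; 62.8% of its bases were G or C.
Plxna2 promoter, chr1:194619579-194619828, plus strand: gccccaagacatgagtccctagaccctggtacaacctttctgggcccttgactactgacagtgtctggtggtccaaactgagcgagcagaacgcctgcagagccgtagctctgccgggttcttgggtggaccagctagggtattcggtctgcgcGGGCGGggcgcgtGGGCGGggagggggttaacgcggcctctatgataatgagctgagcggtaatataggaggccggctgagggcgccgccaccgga

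Partner genes of the pathway were taken from a list of 46, all of which were measured. Of these 10 were called higher and 13 lower, with a median log2 ratio of 0.35, beside 9.39% and 21.2% of all measured genes. The balance depended on scaling, with 11 higher and 11 lower at a common upper quartile and 17 higher and 13 lower with TPM. TPM values are larger than FPKM, so the unchanged pseudocount of 1 also shrank ratios less there. A pseudocount of 0.5 FPKM alone gave 10 higher and 13 lower. Of 12 cytoskeletal effectors 6 were called higher and none lower (median 1.17), of 20 enzymes and adaptors bound by plexins 2 were higher and 5 lower (median -0.14), and of 14 co-receptors and alternative receptors 2 were higher and 8 lower (median -1.18).

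At the higher end, Cdk5r1, the activator of the kinase that phosphorylates collapsin response mediators, stood at 21.4 FPKM in whole body against 155 in telencephalon, 7.26-fold higher. Crmp1 and Dpysl5, which are such mediators and bind tubulin, stood at 95.7 and 515 FPKM and at 49.6 and 207 FPKM. Rnd2, a GTPase of migrating cortical neurons, stood at 24.4 and 112 FPKM. L1cam, the adhesion molecule that joins Nrp1 in the Sema3a receptor, stood at 14.1 and 53.6 FPKM, opposite in direction to Nrp1. The part of the neuronal marker genes, all called higher, in these differences was not tested.

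At the lower end, Hspg2, a heparan sulfate proteoglycan of basement membranes, stood at 45.9 FPKM in whole body against 7.32 in telencephalon. Rras, a GTPase that plexins switch off, stood at 21.3 and 3.701 FPKM, and Rhod, another GTPase that binds plexins, at 11.5 and 1.94. Erbb2 and Met, receptor kinases that associate with Plxnb1, stood at 24.9 and 5.34 FPKM and at 5.59 and 0.653 FPKM, while Plxnb1 itself was called higher. Itgb1, the integrin chain that binds Sema7a, stood at 86.4 and 24.5 FPKM, opposite to Sema7a and Plxnc1.

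**Figure D5:**
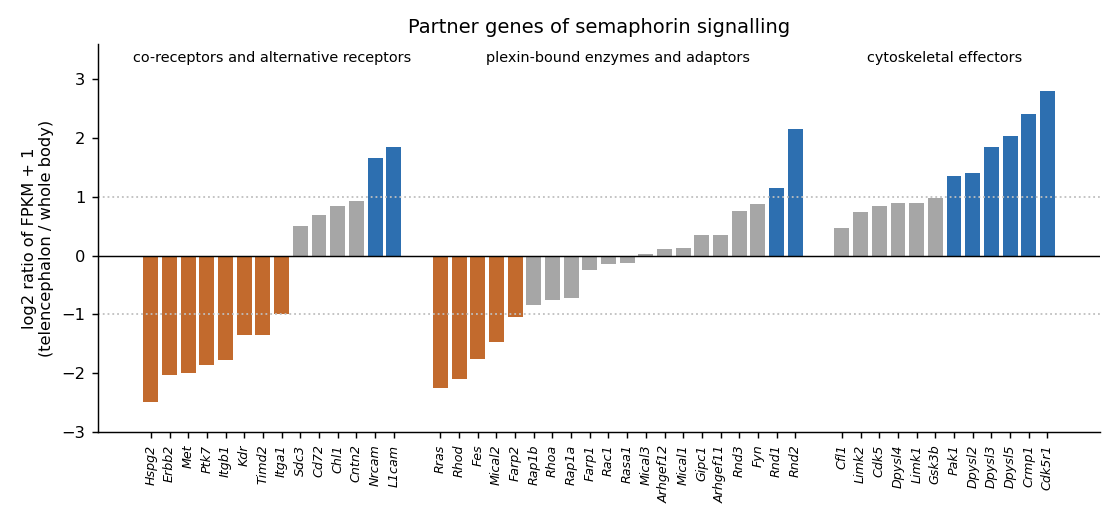
Log2 ratio of FPKM + 1, telencephalon over whole body, for the 46 partner genes in 3 roles, with dotted lines at 2-fold; blue bars were called higher, orange lower and grey lay within 2-fold. The effectors on the right are all above 0, up to 2.80 for Cdk5r1, and the lowest bar is Hspg2 at -2.49.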

How the data were processed

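Whole-body and telencephalon RNA of E12.5 mouse fetuses was sequenced, 1 library each, from TruSeq RNA v2 libraries, a kit that does not mark strand. The authors deposited FPKM per gene and per isoform, made with TopHat, Cufflinks and Cuffdiff on GRCm38, per the submitters' processing notes; versions and annotation release are not given in the sources used here. A count model was not run.

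Log2 ratios were taken with a pseudocount of 1 FPKM for genes with at least 1 FPKM in a library, and called at 2-fold, with no test. Depth was read from single-isoform genes of 1000 bases or more, whose low values are steps of 1 fragment: of values under 4 fragments, 94.0% in whole body and 93.7% in telencephalon came within 0.1 of a whole number, partly by construction, since the fit sought this. Fragment numbers of members are sums over isoforms, and intervals are exact binomial (95%), covering counting error only. The depth fit subtracted 325 bases in whole body and 335 in telencephalon from each length. Isoforms shorter or little longer than that were counted as without fragments, which the intervals do not cover. The depth fit and the calls were tested on simulated data. Transcript lengths, exons and coordinates are from GENCODE M21, promoters from RefSeq. Python 3.11.15, pandas 2.3.3 and scipy 1.17.1 were used.

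The members and lists were chosen with earlier results of these data known. All members are named, of the partner list the 5 highest and 5 lowest and those beside a member they bind, and isoforms where the leading one differed or a share moved by 25 points or more; the Nrp2 forms, the Sema6d exons and the promoter windows were picked with their values in view. The marker genes Tubb3 and Epb42 were not analysed here. Alternatives were pseudocounts of 0.1 and 0.5, a common upper quartile, TPM, folds of 1.5 and 4, floors of 0 and 5 FPKM, and sums without isoforms under 300 bases; coding isoforms of 1000 bases or more were added after seeing the data.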

Additional observations from a re-analysis of the deposited data

How the results depend on the processing

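The median of class 3 ran from -1.28 to -1.09 and that of plexin A from 1.23 to 1.43 over all alternatives tried. Rescaling to TPM moved the median of all measured genes from -0.16 to -0.0156; it was -0.094 with a common upper quartile, -0.17 with a pseudocount of 0.1, -0.10 with a floor of 5 FPKM and 0 with no floor. Under both scalings, the counts of members called stayed at 9 higher and 5 lower. TPM raised the genes called higher from 1408 to 2126 and the partner genes called higher from 10 to 17, with 13 lower as before. TPM values are larger than FPKM, so the pseudocount and floor of 1 weighed less in all TPM results. A pseudocount of 0.5 FPKM alone gave 1580 genes and 10 partner genes higher. A floor of 5 FPKM left 2065 genes lower in place of 3170, 3 members lower in place of 5, 2 ligands lower in place of 4, and a ligand median 0.29 below that of the receptors in place of 0.65 (-0.29 and -0.65 as signed differences).

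Counts depend on the fold. At 1.5-fold 22 members were called in place of 14, with 9 lower in place of 5, 14 ligands in place of 8 (7 higher and 7 lower, in place of 4 and 4), 2 receptors lower in place of 1, 36 partner genes in place of 23 (20 higher in place of 10), and 7288 genes in place of 4578 (2545 higher). At 4-fold only Sema3d remained of the members, so that 1 ligand was lower, 0 ligands were higher and 0 receptors were called in either direction. At 4-fold 8 partner genes (4 higher, 4 lower) and 1563 genes (329 higher, 1234 lower) were called. A pseudocount of 0.5 or 0.1 added Sema3g to the lower calls (-1.04 and -1.28). With coding isoforms of 1000 bases or more, Sema3e turned to 0.10 from -0.45 and Sema4d to -0.16 from 0.16; these were the members whose direction changed under any alternative. The cause of that change is the removal of a retained-intron isoform and of short processed transcripts. No paired analysis was possible because each group has 1 library, and leaving out a library was not possible for the same reason. Depth limits Sema3d and Plxnb3, with about 13 and 17 fragments in telencephalon.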

Other observations

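Genes of other axon guidance families were called in both directions. Of 43 ephrin, Eph, Slit, Robo, netrin and related genes, all measured, 14 were called higher in telencephalon (32.6%) and 12 lower (27.9%). Among all measured genes these shares were 9.39% and 21.2%. The 43 genes had a median log2 ratio of 0.12, and their summed FPKM was 697 in whole body and 920 in telencephalon.

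Annotated exons of 7 members overlap exons of another gene, by 970 bases at most, and reads of opposite strands cannot be told apart in these libraries. Plxna4 shares 110 exon bases with the opposite-strand RNA Plxna4os3, which was listed at 24.4 FPKM in whole body against 114.7 in telencephalon on annotated isoforms under 300 bases.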
